A study of Homo sapiens with 6 samples.

Results

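The mRNAs of the translation initiation and elongation factors were followed in T24 cells, a human bladder cancer cell line. The members are all rows of the deposited expression table whose symbol begins with EIF1 to EIF6, EEF1 or EEF2, with EIF2AK2 left out. There were 69 such genes among the 20030 genes of the table, taken by symbol. The series holds 3 libraries of cells labelled sh-circRIMS1, a knockdown of circRIMS1, a circular RNA of the gene RIMS1, and 3 libraries of the control labelled NC. Both groups are the same cell line, and no other genotype, agent or time is given in the labels. The table's knockdown columns carry the prefix si, so whether a short hairpin or a small interfering RNA was used is unclear, and the labels name neither a further hairpin nor a clone. The circle itself has no row in a table of genes, so the knockdown was not checked here.

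In translation initiation, eIF2 brings the initiator tRNA to the small ribosomal subunit, eIF2B recharges eIF2 with GTP, and eIF3 is the large scaffold on that subunit. The eIF4 factors bind the cap of the mRNA and unwind its leader, and eIF1, eIF1A, eIF5 and eIF5B govern start codon choice and subunit joining. During elongation eEF1A carries aminoacyl-tRNA to the ribosome, the eEF1B subunits recharge eEF1A, and eEF2 moves the ribosome along the mRNA. Many mRNAs of ribosomal proteins and elongation factors begin with a 5′ terminal oligopyrimidine tract, called a TOP, through which mTORC1 and LARP1 control their translation and stability.

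Values are FPKM, fragments scaled to transcript length and to the library's mapped fragments, so each is a share of its library corrected for transcript length. The labels' protocols state that ribosomal RNA was depleted and linear RNA digested with RNase R, yet EEF1A1 ranked number 14, 7 and 14 of all genes in the sh-circRIMS1 libraries and number 4 in each NC library; the part of that digestion in these levels was not tested. FPKM summed to 268143 to 284682 in sh-circRIMS1 and 281518 to 283984 in NC, and the files give no read totals, so the depth behind each value is unknown. Replicate 2 of sh-circRIMS1 stood apart: over the 10408 genes tested its log2 values correlated with those of replicates 1 and 3 at a Pearson's r of 0.97 each, where every other pair within a group gave 0.997 (genes are no independent replicates). The keratins KRT7, KRT8 and KRT18 were abundant, whereas KRT20, UPK1B and UPK3A were listed at 0 and CDH1, EPCAM and GATA3 stayed below 1 FPKM in every library, so 4 of the 13 urothelial and epithelial markers reached a mean of 1 FPKM, PPARG being the fourth. The 13 summed to 704 to 955 FPKM in sh-circRIMS1 and 1240.0 to 1285 FPKM in NC, and 3 of the 4 tested were called lower, with a median log2 change of -0.52. Beside this, 12.7% of all genes tested were called lower, and 30.1% of those with a mean of at least 50 FPKM. Interferon-response genes (21 listed) summed to 1913 to 4545 FPKM in sh-circRIMS1 and 288 to 299 FPKM in NC, lowest of the knockdown libraries in replicate 2. The 9 leukocyte markers summed to 16.98 to 23.7 FPKM in sh-circRIMS1 and 4.97 to 6.08 FPKM in NC, most of it CD68, with CD3E and MS4A1 at 0 and PTPRC at no more than 0.0494 FPKM. The 7 endothelial markers summed to 64.7 to 81.2 FPKM in sh-circRIMS1 and 48.9 to 51.2 FPKM in NC. Called higher were 4 of 5 tested endothelial markers, CD68 as the only leukocyte marker tested, and all 21 interferon-response genes. Among all genes tested 25.0% were called higher. The part of these markers in the results was not tested.

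Translation factor mRNAs were lower in the sh-circRIMS1 cells more often than they were higher. Of the 63 members with a mean of at least 1 FPKM, 19 fell, 5 rose and 39 did not pass the threshold (limma on log2(FPKM + 0.5), Benjamini-Hochberg adjusted p below 0.05 over all 10408 genes). Over all genes tested 12.7% were lower and 25.0% higher, 37.7% in either direction. The members' median log2 change, sh-circRIMS1 minus NC, was -0.15, against 0.06 over all genes. The 69 members together held 2.18, 2.39 and 2.21% of the summed FPKM in the sh-circRIMS1 libraries, against 2.80, 2.80 and 2.79% in the NC libraries. In 30 of the 63 every sh-circRIMS1 library lay below every NC library and in 7 above, where 22.0% and 35.5% of all genes did so. A lower FPKM is a lower share of the library's RNA, and in these bulk samples fewer cells expressing a gene cannot be told apart from less of its RNA per cell.

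The count of members that fell moved with single libraries, as did the count over all genes. Leaving out replicate 2 of sh-circRIMS1 put 34 members lower and 11 higher, while 23.9% of all genes were lower and 36.8% higher, and all 24 calls made with every library were among them. That library stood apart from the other knockdown libraries. Calls made without it, here and below, therefore describe the remaining libraries and are no independent evidence of a change. Without NC replicate 1, 2 or 3 the members lower numbered 13, 12 and 12. The scaling between libraries moved the split over all genes, from 2598 higher and 1322 lower with FPKM as deposited to 2070 and 1931 with median-of-ratios scaling and to 1588 and 2085 with quantile normalization, which shifted the median of all genes by -0.12. Among the members 25 were lower and 5 higher with median-of-ratios scaling, and 19 lower and 3 higher with quantile normalization. Without NC replicate 1 the members higher numbered 3.

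**Figure D1:**
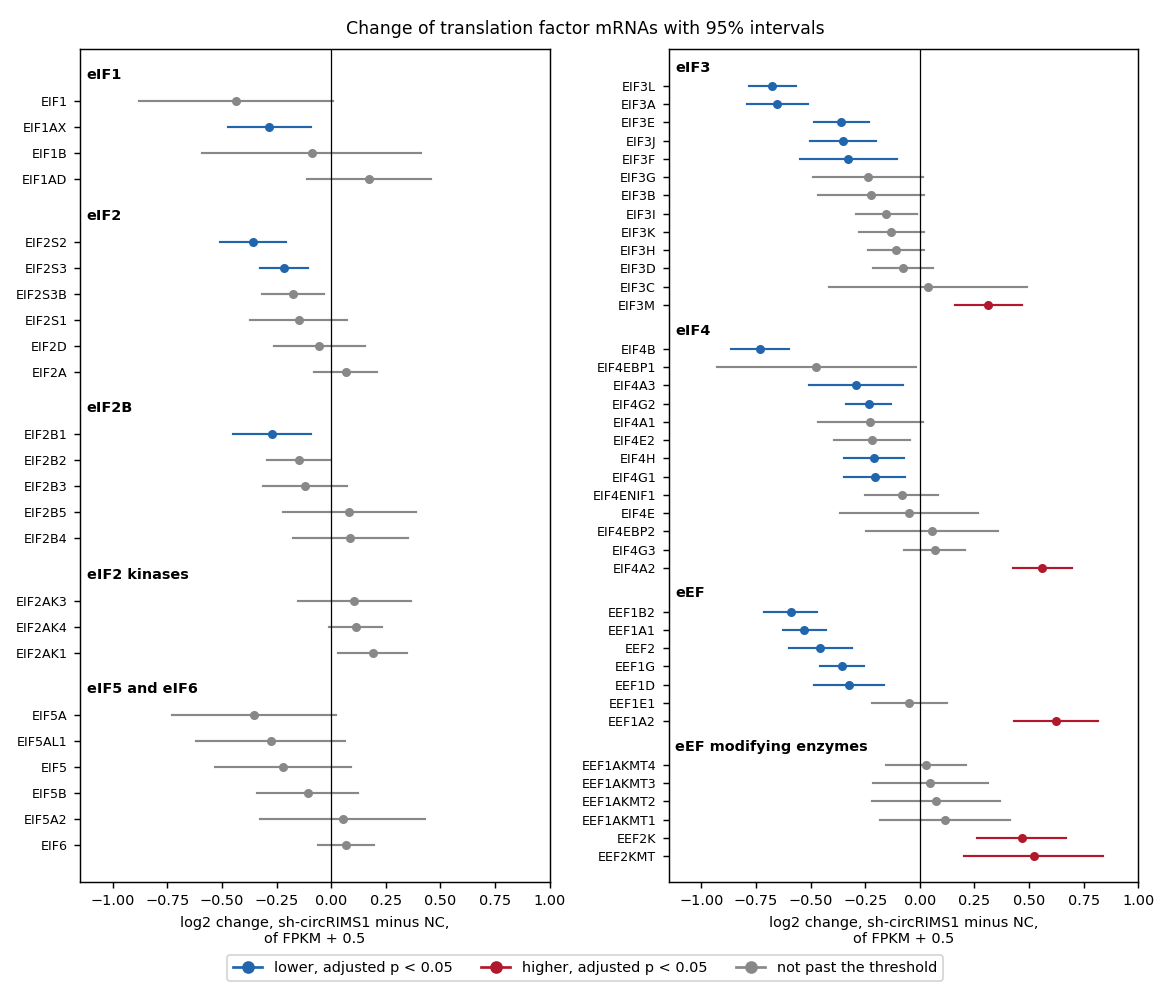
Log2 change of FPKM + 0.5, sh-circRIMS1 minus NC, with its 95% interval for the 63 tested members by factor group; blue marks the 19 that fell, red the 5 that rose and grey those not past the threshold. The eEF group holds the densest run of lower genes, and EEF1A2, EIF4A2 and EIF3M stand to the right of 0 in groups where most genes lie to the left.

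The share of genes called lower differed with expression level throughout the table, so the members were also set beside genes of their own expression level, in classes chosen after the values were seen. Of 27 members with a mean of at least 50 FPKM, 14 (51.9%) were lower and 2 higher, against 30.1% lower and 14.3% higher of the 952 genes at that level. Among members between 10 and 50 FPKM 5 of 19 (26.3%) were lower and 1 higher, against 15.5% and 19.9% of 3751 genes. Below 10 FPKM none of 17 was lower and 2 were higher, against 7.94% and 30.1% of 5705 genes. The median log2 change was -0.24 for members and -0.13 for all genes in the highest class, -0.11 and 0.00 in the middle class, and 0.05 and 0.15 in the lowest.

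**Figure D2:**
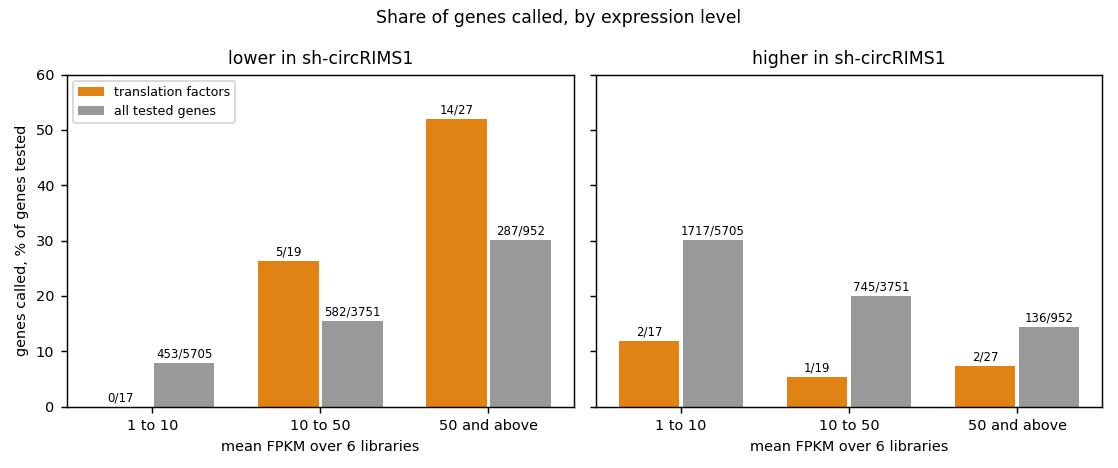
Share of genes called lower (left) and higher (right) in sh-circRIMS1, in percent of genes tested, by mean FPKM over the 6 libraries; orange bars are translation factors, grey bars all tested genes, and the numbers above the bars are genes called of genes tested. The share lower climbs with expression level in both sets and reaches 51.9% of the factors at 50 FPKM and above, where it is 30.1% of all genes.

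Most of the core elongation factors fell. Of the 7 genes of eEF1 and eEF2, 5 fell, 1 rose and 1 was not called, with a median log2 change of -0.36. Over all genes 12.7% were lower, and 30.1% at 50 FPKM and above. EEF1A1, the tRNA carrier and the most abundant member, measured 1389.6, 1464 and 1434 FPKM in the sh-circRIMS1 libraries, against 2057, 2066 and 2068 FPKM in the NC libraries. The knockdown mean was 69.3% of the NC mean with no overlap, and EEF1A1 alone held 0.496, 0.546 and 0.504% of the summed FPKM in the sh-circRIMS1 libraries, against 0.731, 0.73 and 0.728% in NC. The log2 change of EEF1A1 was -0.53 ± 0.04 (SE, limma adjusted p = 0.000296). EEF1B2, the exchange factor subunit that recharges eEF1A, had 224, 218 and 236 FPKM in the sh-circRIMS1 libraries, against 337, 335 and 349 FPKM in the NC libraries, the deepest fall of the group at -0.59 ± 0.05 (log2 change ± SE, limma adjusted p = 0.000385). EEF2, the translocase, measured 495, 551 and 483 FPKM in the sh-circRIMS1 libraries, against 687, 705 and 704 FPKM in the NC libraries. These groups did not overlap, and the log2 change of EEF2 was -0.46 ± 0.06 (SE, limma adjusted p = 0.00197).

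EEF1G and EEF1D, structural and exchange subunits of eEF1B, fell less, at -0.35 ± 0.04 and -0.32 ± 0.07 on the log2 scale (SE, limma adjusted p = 0.00131 and 0.0101). EEF1G averaged 572 ± 11.5 FPKM in sh-circRIMS1 and 732 ± 9.68 FPKM in NC (SD, n = 3 each), and EEF1D averaged 70.2 ± 5.08 FPKM in sh-circRIMS1 and 87.9 ± 2.32 FPKM in NC (SD, n = 3 each). The call of EEF1D was lost without NC replicate 3 (limma adjusted p = 0.0525, with 7.37e-05 to 0.0525 over the 16 alternatives), and that of EEF2 under quantile normalization (0.0590, with 7.76e-08 to 0.059). EEF1E1, which encodes a scaffold protein of the multi-tRNA synthetase complex and not a ribosomal elongation factor, averaged 35.6 ± 3.03 FPKM in sh-circRIMS1 and 36.8 ± 0.693 FPKM in NC (SD, n = 3 each), with overlapping groups (limma adjusted p = 0.623). The reference annotation lists 50 pseudogenes named after EEF1A1 and 8 each after EEF1B2, EEF1G and EEF1D. Other members have them too, among them EIF4B with 9, EIF2S2 and EIF1 with 7 each and EIF4E with 5. How the authors counted reads shared with such copies is unknown, so these levels are uncertain to that extent.

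EEF1A2, the paralog of EEF1A1 typical of neurons and muscle, went the other way. It had 58.5, 48.0 and 55.7 FPKM in the sh-circRIMS1 libraries, against 34.1, 34.5 and 35.8 FPKM in the NC libraries, a log2 change of 0.62 ± 0.08 (SE, limma adjusted p = 0.00177), with every knockdown library above every NC library. Relative to EEF1A1 its FPKM was 4.21, 3.28 and 3.88% in the sh-circRIMS1 libraries, against 1.66, 1.67 and 1.73% in the NC libraries, so EEF1A1 remained by far the larger source of eEF1A mRNA in both groups.

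**Figure D3:**
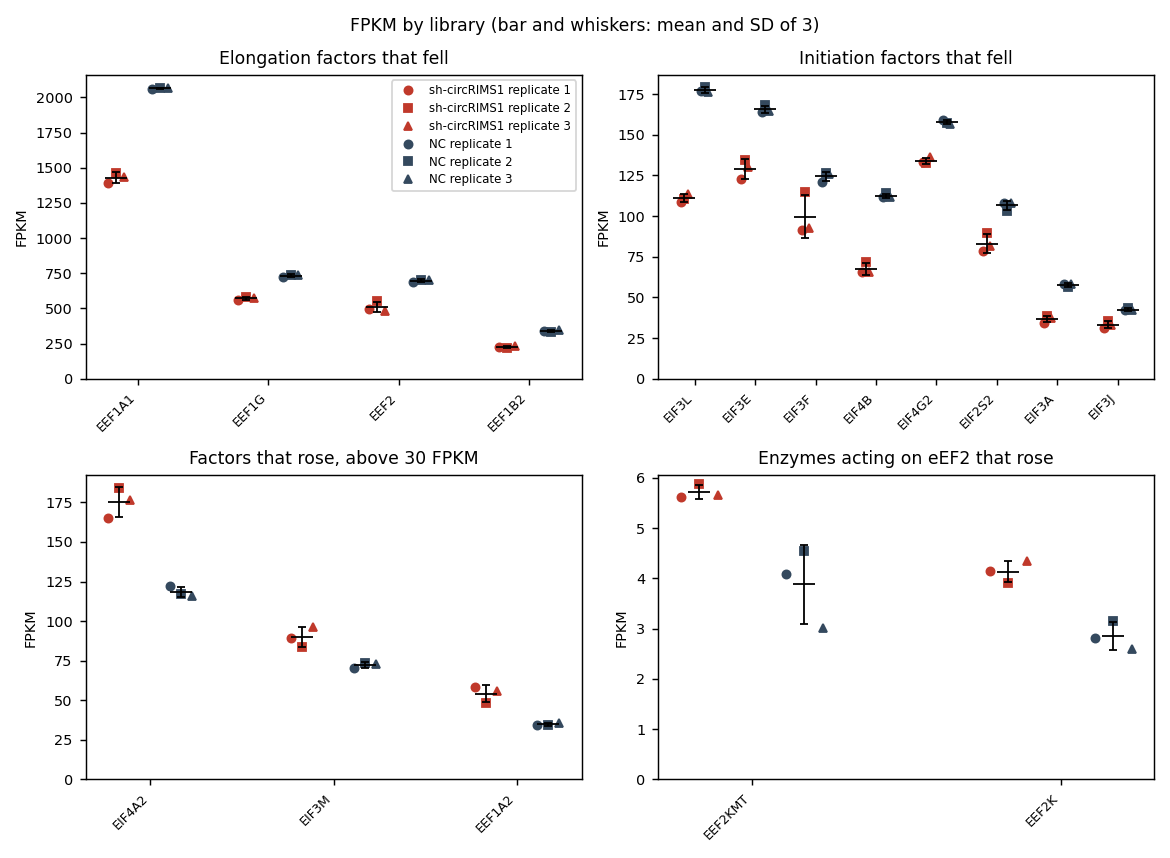
FPKM of 17 translation factor genes in each library, with points for the 3 sh-circRIMS1 libraries (red, left) and the 3 NC libraries (dark, right) and the mean ± SD of 3. The knockdown libraries lie below NC in both upper panels (elongation factors and initiation factors) and above NC in both lower panels, with EEF1A1 at 1389.6 to 1464 FPKM in sh-circRIMS1 and 2057 to 2068 FPKM in NC.

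EEF2K and EEF2KMT, which act on eEF2, rose, and none of the 6 tested modifying enzymes fell. All 6 averaged below 10 FPKM, where 30.1% of all genes were higher and 7.94% lower, so these counts lie near that background. EEF2K, the kinase that phosphorylates and stalls eEF2, measured 4.14, 3.91 and 4.34 FPKM in the sh-circRIMS1 libraries, against 2.81, 3.16 and 2.60 FPKM in the NC libraries, a log2 change of 0.47 ± 0.09 (SE, limma adjusted p = 0.00661). EEF2KMT, a lysine methyltransferase of eEF2, measured 5.62, 5.89 and 5.65 FPKM in the sh-circRIMS1 libraries, against 4.08, 4.54 and 3.01 FPKM in the NC libraries, with 0.52 ± 0.13 on the log2 scale (SE, limma adjusted p = 0.0226). Groups did not overlap for either gene. Both calls were lost under quantile normalization (the limma adjusted p of EEF2K ran from 0.000312 to 0.0734 over the 15 alternatives that tested it), and that of EEF2KMT also without sh-circRIMS1 replicate 1 or 3 or NC replicate 1 (limma adjusted p = 0.0525 to 0.0577 without 1 of these, 0.00747 to 0.064 over the 15 alternatives that tested it). The EEF1A lysine methyltransferases EEF1AKMT1, EEF1AKMT2, EEF1AKMT3 and EEF1AKMT4 lay between 3.52 and 9.57 FPKM with overlapping groups, and none passed the threshold. EEF1AKMT4 averaged 9.12 ± 0.775 FPKM in sh-circRIMS1 and 8.91 ± 0.32 FPKM in NC (SD, n = 3 each), and EEF1AKMT1 averaged 5.58 ± 0.413 FPKM in sh-circRIMS1 and 5.15 ± 0.954 FPKM in NC (SD, n = 3 each). DPH1, DPH2, DPH3, DPH5 and DPH7, whose products make the diphthamide residue of eEF2, had log2 changes of 0.04, -0.15, -0.14, 0.18 and -0.07, none past the threshold. The median log2 change of the 6 tested EEF1AKMT, EEF2K and EEF2KMT genes was 0.09, and it turned to -0.06 under quantile normalization.

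The starts of transcription were read for members that fell and members that rose, to show whether a pyrimidine tract of the TOP kind stands there. Sequences are from RefSeq's table of human promoters (GRCh38.p14), 30 bases each with 10 before the annotated start and 20 from it on, 5′ to 3′ on the gene's strand. Capitals mark a C at the annotated start and the pyrimidines (C or T) that follow it without a break, where at least 4 follow. Where a gene had several entries, an entry with such a tract was printed in preference, so the windows favour its presence. All 6 members that fell with such a tract are printed, but EEF1G alone of the 8 with an entry that fell without it. The first 6 genes fell in sh-circRIMS1:
EEF1A1, chr6:73521013-73521042, minus strand: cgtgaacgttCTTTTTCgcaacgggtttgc
EEF1B2, chr2:206159885-206159914, plus strand: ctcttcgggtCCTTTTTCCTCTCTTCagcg
EEF2, chr19:3985444-3985473, minus strand: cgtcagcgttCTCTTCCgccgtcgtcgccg
EIF4B, chr12:53006446-53006475, plus strand: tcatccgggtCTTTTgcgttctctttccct
EIF3F, chr11:7987327-7987356, plus strand: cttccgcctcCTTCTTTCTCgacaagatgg
EIF2S3, chrX:24054946-24054975, plus strand: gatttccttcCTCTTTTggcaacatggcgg
These 2 genes rose:
EIF4A2, chr3:186783567-186783596, plus strand: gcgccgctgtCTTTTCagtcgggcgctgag
EIF3M, chr11:32583821-32583850, plus strand: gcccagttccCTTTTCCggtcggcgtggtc
And these 2, 1 that fell and 1 that did not pass the threshold, hold no tract of that length at the annotated start:
EEF1G, chr11:62573872-62573901, minus strand: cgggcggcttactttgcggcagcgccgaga
EIF4A1, chr17:7572815-7572844, plus strand: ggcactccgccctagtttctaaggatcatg

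The tract was thus present in members that moved in either direction. Promoter entries were found for 55 of the 69 members. A gene with several entries was counted as holding a tract when any of them did. A C followed by at least 5 pyrimidines, starting within 10 bases of the annotated start on the gene's strand, was found in 23 of these 55 (41.8%), against 24.6% of all 27305 genes with an entry, 27.4% of tested genes with one and 20.8% of all 35116 entries. With the C at the annotated start itself and at least 4 pyrimidines after it, a stricter form chosen after the sequences were seen, it was found in 13 of 55 (23.6%), against 5.14% of genes, 7.9% of tested genes and 4.07% of entries. Among tested members with the stricter tract 6 of 13 were lower and 2 higher, and among those without it 8 of 37 were lower and 1 higher. The same split over all tested genes with an entry gave 16.9% lower and 23.1% higher of 681 with the tract, and 12.1% and 24.6% of 7936 without it. By the first, wider form 9 of 22 tested members with it were lower and 2 higher, and 5 of 28 without it were lower and 1 higher. Over all tested genes this wider form gave 14.8% lower and 24.7% higher of 2364 with it. Without it 11.6% of 6253 were lower and 24.4% higher. Genes with and without a tract were not matched for expression level, with which the share lower also climbed. The part of expression level in these splits was not tested. A match describes the letters in the reference only, and annotated starts can differ from those used in T24 cells.

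Of 9 members listed as known TOP mRNAs, 8 fell, with a median log2 change of -0.36, and all 9 lie in the class of at least 50 FPKM, where 30.1% of all genes fell. The list was drawn up from general knowledge with results of these data known and does not hold EIF4A2 and EIF3M, which rose, so its direction is a description and no independent evidence. Those that fell were EEF1A1, EEF1B2, EEF1D, EEF1G, EEF2, EIF3E, EIF3F and EIF4B. The remaining one, EIF3H, measured 121, 132 and 122 FPKM in the sh-circRIMS1 libraries, against 138, 134 and 133 FPKM in the NC libraries, with a log2 change of -0.11 (limma adjusted p = 0.146). Its groups did not overlap. Without sh-circRIMS1 replicate 2 all 9 were lower, with a median of -0.43, beside 23.9% of all genes lower in that fit. In the sequence search EEF1A1, EEF1B2, EEF2, EIF3F and EIF4B held the stricter tract and EEF1G held neither form. EEF1D, EIF3E and EIF3H had no promoter entry. Of 5 TOP mRNAs outside the factor families, PABPC1, TPT1, NAP1L1, HNRNPA1 and RACK1, all 5 fell, with a median log2 change of -0.37. These 5 also lie in the class of at least 50 FPKM, where 30.1% of all genes fell. This list too was drawn up with results of these data known, so it is no independent evidence. PABPC1 and RACK1 are counted again among the translation regulators below. NAP1L1, a histone chaperone, averaged 73.4 FPKM in sh-circRIMS1, against 99.4 FPKM in NC.

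In the eIF4 group 5 of 13 tested members fell, 1 rose and 7 did not pass the threshold, with a median log2 change of -0.21. Lower were also 12.7% of all genes and 30.1% of those with at least 50 FPKM. EIF4B, an RNA-binding cofactor that stimulates the helicase eIF4A, fell furthest of all 63 members. Its values were 65.4, 71.9 and 65.5 FPKM in the sh-circRIMS1 libraries, against 112, 114 and 112 FPKM in the NC libraries, which is 60.03% of the NC mean, and its log2 change was -0.73 ± 0.06 (SE, 95% interval -0.87 to -0.60, limma adjusted p = 0.000271). EIF4G2, a homologue of eIF4G that lacks the cap-binding protein's docking site, averaged 134 ± 1.99 FPKM in sh-circRIMS1 and 158 ± 1.10 FPKM in NC (SD, n = 3 each), a log2 change of -0.23 (limma adjusted p = 0.00708). Falls of similar size were found for EIF4G1, the main scaffold of the cap complex, at -0.21, for EIF4H, another helper of eIF4A, at -0.21, and for EIF4A3, the helicase of the exon junction complex, at -0.29 (limma adjusted p = 0.0309, 0.0296 and 0.0426). These 3 calls lay close to the threshold. Each was lost without any 1 of the NC libraries, EIF4G1 also without sh-circRIMS1 replicate 3 and the others also without sh-circRIMS1 replicate 1. The limma adjusted p in those fits was 0.0515 to 0.115 for EIF4G1, 0.0534 to 0.107 for EIF4H and 0.0537 to 0.131 for EIF4A3, where all 16 alternatives gave 0.00116 to 0.115, 0.000514 to 0.107 and 0.000818 to 0.131. The log2 changes over all 16 alternatives ran from -0.28 to -0.16 for EIF4G1, -0.28 to -0.16 for EIF4H and -0.37 to -0.19 for EIF4A3. EIF4A3 also lost its call with no filter on low values and with no intensity trend.

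Of the 2 paralogs of the eIF4A helicase EIF4A2 was called and EIF4A1 was not. EIF4A2 rose, with 165, 184 and 176 FPKM in the sh-circRIMS1 libraries, against 122, 117 and 116 FPKM in the NC libraries, a log2 change of 0.56 ± 0.06 (SE, limma adjusted p = 0.000729). EIF4A1, the more abundant paralog, had 506, 395 and 510.1 FPKM in the sh-circRIMS1 libraries, against 545, 544 and 551 FPKM in the NC libraries. Every knockdown library lay below NC, replicate 2 furthest, and the gene did not pass the threshold (-0.23 on the log2 scale, limma adjusted p = 0.122). Without replicate 2 it was called lower, at -0.11 (limma adjusted p = 0.00123, 0.00123 to 0.257 over the 16 alternatives). EIF4A2 amounted to 32.6, 46.6 and 34.6% of EIF4A1 in the sh-circRIMS1 libraries, against 22.4, 21.6 and 21.0% in the NC libraries. The annotation lists 13 pseudogenes named after EIF4A1 and 5 after EIF4A2.

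The cap-binding proteins and their inhibitors showed no call with all libraries. EIF4E, the cap-binding protein itself, had 2.08, 1.58 and 2.42 FPKM in the sh-circRIMS1 libraries, against 2.00, 2.21 and 2.08 FPKM in the NC libraries, and EIF4E2, its homologue in translational repression, had 12.3, 10.8 and 12.2 FPKM in the sh-circRIMS1 libraries, against 14.0, 14.2 and 13.1 FPKM in the NC libraries. EIF4E2 did not reach the threshold (log2 change -0.22, limma adjusted p = 0.0521). EIF4EBP1, the mTORC1-regulated inhibitor of eIF4E, had 70.1, 113 and 66.8 FPKM in the sh-circRIMS1 libraries, against 108, 110.4 and 119 FPKM in the NC libraries. Replicates 1 and 3 lay well below NC and replicate 2 within the NC range, and the log2 change of -0.47 did not pass (limma adjusted p = 0.0942). Without replicate 2 it was -0.71 and passed (limma adjusted p = 7.7e-07, 7.7e-07 to 0.231 over the 16 alternatives). EIF4EBP2, the second such inhibitor, averaged 11.6 ± 2.03 FPKM in sh-circRIMS1 and 11.05 ± 0.543 FPKM in NC (SD, n = 3 each). EIF4G3, the third eIF4G scaffold, averaged 10.1 ± 0.316 FPKM in sh-circRIMS1 and 9.65 ± 0.388 FPKM in NC (SD, n = 3 each), and EIF4ENIF1, which carries eIF4E into the nucleus, averaged 4.56 ± 0.202 FPKM in sh-circRIMS1 and 4.87 ± 0.28 FPKM in NC (SD, n = 3 each), and neither passed. Without sh-circRIMS1 replicate 2 EIF4EBP2 was called higher (0.20, limma adjusted p = 0.00995, 0.00995 to 0.986 over the 16 alternatives) and EIF4E2 lower (-0.16, limma adjusted p = 0.0176, 0.0126 to 0.171 over the 16 alternatives). The eIF4 group then had 8 members lower and 2 higher, with a median of -0.16, beside 23.9% lower and 36.8% higher of all genes.

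In the eIF3 complex 5 of 13 tested subunit genes fell, 1 rose and 7 did not pass, with a median log2 change of -0.22. The share lower was 12.7% over all genes and 30.1% over those of at least 50 FPKM, to which most of these subunits belong. EIF3L measured 108, 111 and 114 FPKM in the sh-circRIMS1 libraries, against 177, 179.6 and 176 FPKM in the NC libraries. EIF3A, the largest scaffold subunit, measured 34.4, 38.3 and 37.1 FPKM in the sh-circRIMS1 libraries, against 58.5, 56.5 and 58.4 FPKM in the NC libraries. Their knockdown means were 62.5% and 63.3% of the NC means, with no overlap and log2 changes of -0.68 ± 0.05 and -0.65 ± 0.06 (SE, limma adjusted p = 0.000188 and 0.000455). EIF3E, a core subunit, had 123, 134 and 129.97 FPKM in the sh-circRIMS1 libraries, against 164, 168 and 165 FPKM in the NC libraries, a log2 change of -0.36 (limma adjusted p = 0.00271). EIF3J, a loosely bound subunit at the mRNA entry side, averaged 33.2 ± 2.25 FPKM in sh-circRIMS1 and 42.5 ± 0.718 FPKM in NC (SD, n = 3 each), a log2 change of -0.35 (limma adjusted p = 0.00614). EIF3F, another core subunit, had 91.3, 115 and 92.8 FPKM in the sh-circRIMS1 libraries, against 121, 127 and 126 FPKM in the NC libraries. Its replicate 2 lay nearest to NC, and the call (-0.33, limma adjusted p = 0.0318) was lost without sh-circRIMS1 replicate 1 or 3 or any 1 NC library (limma adjusted p = 0.0852 to 0.106, 1.81e-06 to 0.112 over the 16 alternatives), and with no filter, under quantile normalization and as TPM.

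EIF3M, another core subunit, was the member of the complex that rose. It had 89.3, 83.9 and 96.5 FPKM in the sh-circRIMS1 libraries, against 70.2, 73.5 and 72.7 FPKM in the NC libraries, a log2 change of 0.31 ± 0.06 (SE, limma adjusted p = 0.0102). The groups did not overlap, and the call was lost without NC replicate 1 (limma adjusted p = 0.0535, 2.16e-05 to 0.0535 over the 16 alternatives). The subunits EIF3B, EIF3D, EIF3G, EIF3H, EIF3I and EIF3K had log2 changes of -0.22, -0.08, -0.24, -0.11, -0.15 and -0.13, none past the threshold. Without sh-circRIMS1 replicate 2 the complex had 10 genes lower and 1 higher, and its median was -0.12. In that fit 23.9% of all genes were lower and 36.8% higher. EIF3C, a core subunit, showed 7.17, 5.95 and 4.96 FPKM in the sh-circRIMS1 libraries, against 7.63, 5.40 and 4.70 FPKM in the NC libraries, far below the other subunits. Its near-identical copy EIF3CL had 0.711, 0.525 and 0.494 FPKM in the sh-circRIMS1 libraries, against 2.37, 0.7 and 0.675 FPKM in the NC libraries, where NC replicate 1 stood apart. The 2 genes can share reads, so neither level is firm.

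The trimeric eIF2 had 2 of its 3 subunits lower, and these were the calls among the 6 tested genes of the eIF2 group, whose median log2 change was -0.16. Lower over all genes were 12.7%, and 30.1% at 50 FPKM and above. EIF2S2, the beta subunit, measured 78.3, 89.4 and 81.6 FPKM in the sh-circRIMS1 libraries, against 108, 103 and 108 FPKM in the NC libraries, a log2 change of -0.36 ± 0.06 (SE, limma adjusted p = 0.00565). EIF2S3, the GTP-binding gamma subunit, measured 153, 157 and 159 FPKM in the sh-circRIMS1 libraries, against 185, 181 and 179 FPKM in the NC libraries, with -0.22 ± 0.05 on the log2 scale (SE, limma adjusted p = 0.0113). Neither pair of groups overlapped, and the call of EIF2S3 was lost without NC replicate 1 or 2 (limma adjusted p = 0.0596 to 0.0656, 0.000135 to 0.0656 over the 16 alternatives). EIF2S1, the alpha subunit that the eIF2 kinases phosphorylate, had 32.4, 26.1 and 32.8 FPKM in the sh-circRIMS1 libraries, against 33.1, 33.7 and 34.0 FPKM in the NC libraries and did not pass (limma adjusted p = 0.242). EIF2S3B, a copy of EIF2S3 that can share its reads, averaged 8.82 FPKM in sh-circRIMS1, against 10.0 FPKM in NC. EIF2A and EIF2D, initiator tRNA-binding factors outside the trimer, did not pass. EIF2A averaged 27.2 FPKM in sh-circRIMS1, against 26.0 FPKM in NC, and EIF2D averaged 7.57 FPKM in sh-circRIMS1, against 7.85 FPKM in NC.

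Of the 5 subunits of eIF2B, the exchange factor of eIF2, EIF2B1 alone passed the threshold. Called lower were also 12.7% of all genes, and 15.5% of those from 10 to 50 FPKM, where most of these subunits lie. EIF2B1, the alpha subunit, had 18.7, 16.6 and 17.8 FPKM in the sh-circRIMS1 libraries, against 20.1, 21.2 and 23.1 FPKM in the NC libraries, a log2 change of -0.27 (limma adjusted p = 0.0293), lost without sh-circRIMS1 replicate 3 or NC replicate 2 or 3 (limma adjusted p = 0.0665 to 0.111, 0.00433 to 0.111 over the 16 alternatives). EIF2B2, the beta subunit, averaged 27.3 ± 1.58 FPKM in sh-circRIMS1 and 30.3 ± 0.758 FPKM in NC (SD, n = 3 each). The log2 changes of EIF2B2 to EIF2B5 in order were -0.15, -0.12, 0.09 and 0.08, none of them called. EIF2B5, the catalytic subunit, had 15.1, 10.9 and 15.1 FPKM in the sh-circRIMS1 libraries, against 12.5, 12.5 and 13.2 FPKM in the NC libraries, with replicates 1 and 3 above and replicate 2 below the NC range. Without replicate 2, EIF2B4 and EIF2B5 were called higher and EIF2B1 and EIF2B2 lower, and the median of the 5 was -0.06, against -0.12 with all libraries. Without that library 36.8% of all genes were higher and 23.9% lower.

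The 3 eIF2 kinases among the members, EIF2AK1, EIF2AK3 and EIF2AK4, which phosphorylate eIF2 in stress, were not called with all libraries. EIF2AK1, known as HRI and activated by loss of heme and by mitochondrial stress, measured 22.1, 19.6 and 21.5 FPKM in the sh-circRIMS1 libraries, against 18.3, 19.1 and 17.8 FPKM in the NC libraries, and EIF2AK4, known as GCN2 and activated by amino acid shortage, measured 15.6, 15.3 and 15.8 FPKM in the sh-circRIMS1 libraries, against 14.5, 14.5 and 14.1 FPKM in the NC libraries. In both every knockdown library lay above NC, as in 35.5% of all genes, with log2 changes of 0.19 and 0.11 (limma adjusted p = 0.0611 and 0.123). Without sh-circRIMS1 replicate 2 both were called higher, at 0.24 and 0.12 (limma adjusted p = 0.000957 and 0.0238, ranges over the 16 alternatives 0.000957 to 0.216 and 0.0197 to 0.553). In that fit 36.8% of all genes were called higher too. EIF2AK3, known as PERK, the kinase of the endoplasmic reticulum, averaged 2.58 ± 0.422 FPKM in sh-circRIMS1 and 2.34 ± 0.0249 FPKM in NC (SD, n = 3 each), with overlapping groups.

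Among the factors of start codon choice and subunit joining, EIF1AX was the member that passed the threshold, while 12.7% of all genes were lower. The 4 tested genes of the eIF1 group had a median log2 change of -0.19, which was -0.10 without sh-circRIMS1 replicate 1 and -0.28 without replicate 2. Without sh-circRIMS1 replicate 2, 3 of them were lower, beside 23.9% of all genes. EIF1AX, which encodes eIF1A, had 30.5, 26.8 and 32.7 FPKM in the sh-circRIMS1 libraries, against 36.4, 36.9 and 36.2 FPKM in the NC libraries, a log2 change of -0.28 (limma adjusted p = 0.0306). Its groups did not overlap, and the call was lost without sh-circRIMS1 replicate 1 or any 1 NC library (limma adjusted p = 0.0609 to 0.105, 0.00141 to 0.105 over the 16 alternatives). EIF1, the gatekeeper of AUG selection, had 286, 477 and 298 FPKM in the sh-circRIMS1 libraries, against 464, 471 and 461 FPKM in the NC libraries. Its paralog EIF1B had 32.5, 61.0 and 38.7 FPKM in the sh-circRIMS1 libraries, against 46.2, 44.9 and 44.8 FPKM in the NC libraries, and EIF5, which stimulates GTP hydrolysis by eIF2, had 41.2, 58.9 and 43.4 FPKM in the sh-circRIMS1 libraries, against 55.3, 55.5 and 54.3 FPKM in the NC libraries. In all 3 genes replicates 1 and 3 lay below every NC library and replicate 2 above every NC library, and none passed with all libraries (limma adjusted p = 0.109, 0.756 and 0.225). Without replicate 2 the log2 changes were -0.67, -0.35 and -0.38 (limma adjusted p = 2.9e-08, 0.00105 and 1.41e-05), where the 16 alternatives gave 2.9e-08 to 0.261, 0.00105 to 0.951 and 1.41e-05 to 0.494. Replicate 2 is the library that lay apart in these 3 genes, so the p-values without it are no independent evidence of a fall. EIF1AD, which encodes a nuclear protein with an eIF1A domain, averaged 6.96 FPKM in sh-circRIMS1, against 6.07 FPKM in NC, and did not pass.

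EIF5A, the hypusine-bearing factor that relieves stalled ribosomes, showed the opposite order of the knockdown libraries. It had 137, 90.5 and 137 FPKM in the sh-circRIMS1 libraries, against 153, 152 and 152 FPKM in the NC libraries, all below NC and replicate 2 the lowest (log2 change -0.35, limma adjusted p = 0.121). Without replicate 2 it was called lower at -0.16 (limma adjusted p = 0.000366, 0.000366 to 0.243 over the 16 alternatives). Its copy EIF5AL1, which can share its reads, averaged 2.71 FPKM in sh-circRIMS1, against 3.34 FPKM in NC, and its paralog EIF5A2 had 3.53, 5.46 and 3.76 FPKM in the sh-circRIMS1 libraries, against 3.88, 4.49 and 3.70 FPKM in the NC libraries. EIF5B, the subunit-joining GTPase, averaged 18.7 ± 2.41 FPKM in sh-circRIMS1 and 20.03 ± 0.409 FPKM in NC (SD, n = 3 each), and EIF6, an anti-association factor of the large subunit, averaged 72.4 ± 3.30 FPKM in sh-circRIMS1 and 69.0 ± 1.08 FPKM in NC (SD, n = 3 each). The eIF5 and eIF6 group held no call with all libraries and a median log2 change of -0.16, which was -0.06 without sh-circRIMS1 replicate 1. Across the 63 tested members, 21 (33.3%) differed by more than 0.3 on the log2 scale between replicate 2 and the mean of replicates 1 and 3, close to the 34.8% of all genes that did so.

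**Figure D4:**
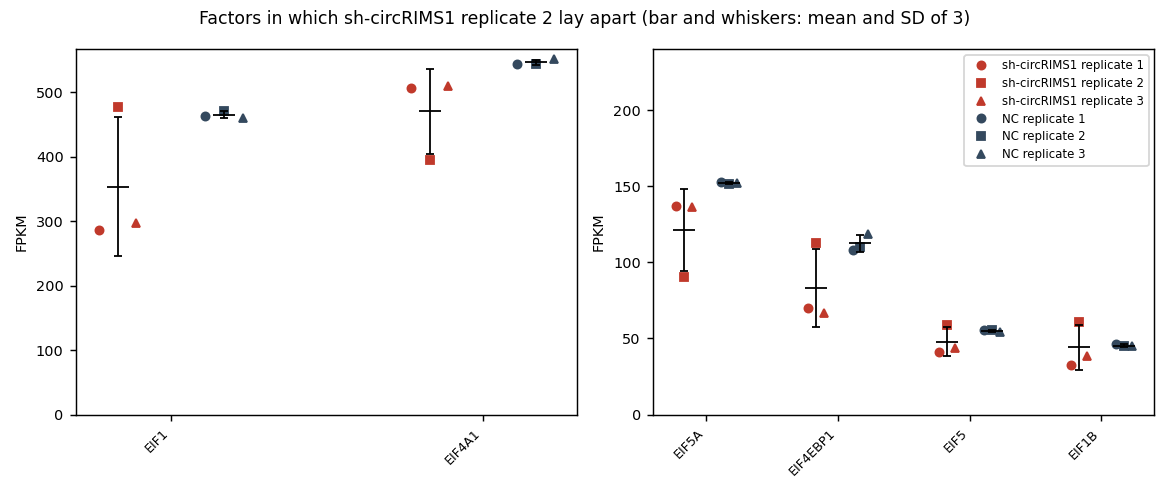
FPKM by library for 6 factors in which sh-circRIMS1 replicate 2 (red square) lay apart from replicates 1 and 3, with NC at the right of each pair (dark) and the mean ± SD of 3. For EIF1, EIF4EBP1, EIF5 and EIF1B the square lies at or above the NC level while the other red points lie below it, and for EIF5A and EIF4A1 it is the lowest point.

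The 6 members below the filter were EIF3CL, EIF4E3, EIF4EBP3, EIF4E1B, EIF1AY and the readthrough gene EEF1AKMT4-ECE2. EIF4E3, a cap-binding homologue of eIF4E, had 0.618, 1.59 and 0.839 FPKM in the sh-circRIMS1 libraries, against 0.323, 0.211 and 0.307 FPKM in the NC libraries. Every knockdown library lay above NC, with replicate 2 the highest, and the exact two-sided permutation p of 0.1 is the smallest that 3 against 3 libraries can give. EIF4E1B was listed at 0 in every library. EIF4EBP3, the third inhibitor of eIF4E, was listed at 0.277 and 0.162 FPKM in sh-circRIMS1 replicates 1 and 2 and at values near 0 in replicate 3 and in every NC library.

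Other genes of cytoplasmic translation were counted beside the factors. Of 37 tested genes of a list of translation regulators, 6 (16.2%) fell and 2 rose, with a median log2 change of -0.05, beside 12.7% lower and 25.0% higher of all genes. PABPC1, the poly(A)-binding protein that bridges the mRNA tail to eIF4G, had 264, 289 and 269 FPKM in the sh-circRIMS1 libraries, against 391.79, 381 and 383 FPKM in the NC libraries (log2 change -0.49, limma adjusted p = 0.000838). RACK1, a scaffold protein of the small subunit, averaged 821 ± 29.4 FPKM in sh-circRIMS1 and 1056 ± 6.23 FPKM in NC (SD, n = 3 each), and GSPT1, the termination factor eRF3a, averaged 27.2 ± 1.22 FPKM in sh-circRIMS1 and 36.9 ± 0.466 FPKM in NC (SD, n = 3 each). PABPC4, ETF1 and DOHH also fell, and PAIP2, an inhibitor of PABPC1, and DHPS rose by 0.21 and 0.21. DHPS and DOHH are the enzymes that make hypusine on eIF5A, and DOHH averaged 6.86 FPKM in sh-circRIMS1, against 9.82 FPKM in NC. Without sh-circRIMS1 replicate 2 the list had 15 of 38 genes lower and 7 higher, beside 23.9% and 36.8% of all genes. Of 12 mitochondrial translation factors TUFM, the mitochondrial elongation factor Tu, fell (-0.24), MTIF2, a mitochondrial initiation factor, rose (0.33), and 10 did not pass, with a median of -0.06 (limma adjusted p = 0.0228 and 0.0335 for the pair).

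EIF2AK2, the double-stranded RNA-activated kinase of eIF2 that the choice of members leaves out, had 26.8, 17.4 and 28.5 FPKM in the sh-circRIMS1 libraries, against 10.4, 10.5 and 10.2 FPKM in the NC libraries, every knockdown library lying above NC and replicate 2 the lowest of them. Unlike the kinases among the members, it was called higher with all libraries (log2 change 1.15 ± 0.18, SE, limma adjusted p = 0.00321).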

How the data were processed

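RNA sequencing of 6 T24 libraries was used, 3 labelled sh-circRIMS1 and 3 labelled NC. The authors deposited FPKM per gene, already divided by depth and transcript length; the submitters' processing notes list StringTie, DESeq, HTSeq, Cufflinks, HISAT2 and Trimmomatic, without roles or versions, and the genome build was not given in the sources used here. FPKM carry no counts, so no count model was run. Genes with a mean of at least 1 FPKM were tested with limma 3.58.1 under R 4.3.3; log2(FPKM + 0.5) was fitted with an intensity-dependent prior, group as the only term, two-sided, Benjamini-Hochberg adjustment over 10408 genes, threshold 0.05; the procedure was tested on simulated data. This scale understates changes of low genes. Nothing says that replicates came from separate cultures, so p-values measure the spread between these libraries, which may be technical. Members and lists were chosen with earlier results of these data known. Every called member, the 2 most abundant of each group and paralog pairs were named; other members named were chosen after their values were seen. The TOP lists are from general knowledge. Knockdown columns (si_circ and a number) were matched to titles by the circle and number. Alternatives were pseudocounts of 0.1 and 1, other filters and scalings, array weights, no trend, the replicate block and each library left out. Sequences and pseudogene counts are from RefSeq (GRCh38.p14), matched by GeneID or symbol.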

Additional observations from a re-analysis of the deposited data

How the results depend on the processing

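Over 16 alternatives (15 for EEF2K and EEF2KMT, which a mean of at least 5 FPKM leaves out), none of the 24 called members changed direction, and 10 of 19 lower and 2 of 5 higher members kept their calls throughout. Those were EEF1A1, EEF1B2, EEF1G, EIF2S2, EIF3A, EIF3E, EIF3J, EIF3L, EIF4B and EIF4G2, with EEF1A2 and EIF4A2. The causes of the changes given here were not tested. Replicate numbers did not pair the libraries (correlation of deviations over genes -0.0258, -0.0033 and -0.0402 for numbers 1, 2 and 3); with the replicate block 13 members were lower and 5 higher, 996 and 2142 over all genes, and EIF1AX, EIF2B1, EIF2S3, EIF4A3, EIF4G1 and EIF4H were no longer called. Leaving out 1 library gave 12 to 34 members lower, 3 to 11 higher, 685 to 2474 of all genes lower and 1630 to 3803 higher. Median log2 changes then ran from -0.28 to -0.12 for eIF3, -0.28 to -0.0988 for eIF1, -0.17 to -0.0624 for eIF5 and eIF6, 0.11 to 0.17 for the eIF2 kinases and 0.0719 to 0.17 for eEF modifying enzymes. Array weights gave 32 members lower and 11 higher, 2424 and 3983 over all genes, and an eIF3 median of -0.12. A mean of at least 5 FPKM left 3 members higher, 1469 genes higher and a kinase median of 0.15. Median-of-ratios scaling gave medians of -0.43 for eEF, -0.23 for eIF2, 0.0446 for the kinases, -0.30 for eIF3, -0.28 for eIF4 and -0.24 for eIF5 and eIF6. Quantile normalization gave 3 members higher, 1588 genes higher and 2085 lower, and medians of -0.26 for eEF, 0.0504 for the kinases, -0.17 for eIF3 and -0.0557 for eEF modifying enzymes, the last reversed in sign. TPM gave medians of -0.33 for eEF and 0.15 for the kinases. Read depth is unknown, so counting error could not be set.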
